A study of Angelica pubescens with 12 samples.

Results

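In roots of Angelica pubescens, 3706 of 67432 unigenes set Shanxi apart from every other sampled area, 1963 of them higher and 1743 lower in Shanxi. A unigene is a sequence assembled from the reads without a genome, and is given here with its identifier and the protein it matched best. A member had every Shanxi library outside the range of the 9 other libraries in CPM (counts scaled to library size, here with TMM factors) and a mean Shanxi CPM at least 2-fold from the nearest other area mean. It also had a mean of at least 1 CPM over the 12 libraries, and no match to a virus, a fungus or another organism that is not a plant. These CPM values chose the members, so the Shanxi levels below are a description and carry no test.

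RNA was sequenced from roots aged 2 years, as 3 libraries each from Shanxi, Chongqing, Gansu and Hubei. No treatment or genotype is named for any area, and the labels do not say that the 3 libraries of an area are separate plants. Any p-value below thus rests on how far these samples lie apart, and that spread could be technical. Libraries held 19920182 to 23319714 estimated counts.

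The dried root is the drug Angelicae pubescentis radix, known for its coumarins. Coumarins start from phenylalanine through the phenylpropanoid pathway, are closed to a lactone ring, and can be prenylated, cyclised and O-methylated to furanocoumarins such as bergapten. The same pathway feeds lignin, terpene synthases add the volatile oil, and storage roots of this family hold starch and sugars while their walls are built by cellulose synthases and loosened by pectin and xyloglucan enzymes.

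Of the 39002 plant or unmatched unigenes with a mean of at least 1 CPM, 5.03% were higher and 4.47% lower in Shanxi by the rule. Applied to the other areas, the same rule gave 1650 higher and 2374 lower unigenes in Chongqing, 1463 higher and 1708 lower in Gansu, and 2979 higher and 2123 lower in Hubei. The median member differed from its nearest area 3.31-fold on the higher side and 4.6-fold on the lower side. At least 16-fold separated 326 higher and 443 lower members from the nearest area. No counts were found in any of the 9 other libraries for 51 higher members, nor in the 3 Shanxi libraries for 267 lower members. In bulk roots, fewer cells of a type and less RNA per cell cannot be told apart.

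The members took up very different amounts of RNA by area, in a direction the rule fixed. Summed over the higher members, the Shanxi libraries held 75939 to 79696 CPM, against 13130.1 to 13659 CPM in Chongqing, 14453 to 15075 CPM in Gansu and 16239 to 17060.1 CPM in Hubei. Summed over the lower members, the Shanxi libraries held 5767 to 6185 CPM, against 59743 to 62263 CPM in Chongqing, 39531 to 41327 CPM in Gansu and 32573 to 33614 CPM in Hubei. Chongqing thus carried the largest sum of the lower members and the smallest sum of the higher members.

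Hubei was the nearest area for 796 higher members (40.6%) and 772 lower members (44.3%), Gansu for 634 (32.3%) and 595 (34.1%), and Chongqing for 533 (27.2%) and 376 (21.6%). Some members were level across the other areas and some were graded. The other area means lay within 2-fold of each other for 565 higher members (28.8%) and 644 lower members (36.9%), against 43.6% of all unigenes of at least 1 CPM. They lay at least 4-fold apart for 920 higher members (46.9%) and 541 lower members (31%), against 31.6% of all. In the test of any difference among Chongqing, Gansu and Hubei, 1361 higher members (69.3%) and 1284 lower members (73.7%) were called, against 62.8% of all 60756 tested unigenes (edgeR quasi-likelihood test, Benjamini-Hochberg adjusted p under 0.05). That last share also covers unigenes under 1 CPM and those of other organisms. It is therefore not matched to the members in level, and no excess is read from it.

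The Shanxi contrasts of the same fit used the values that chose the members, and nothing is read from them. Higher members were called in 1929 cases against Chongqing, 1915 against Gansu and 1907 against Hubei, where 24.8%, 22.9% and 21% of all tested unigenes were called higher in Shanxi. Lower members were called in 1734 cases against Chongqing, 1727 against Gansu and 1711 against Hubei, where 23%, 21.2% and 23.5% were called lower. In either direction, calls took 47.8% of tested unigenes against Chongqing, 44.1% against Gansu and 44.6% against Hubei. Calls against all 3 areas at once took 7.44% on the higher side and 6.66% on the lower side.

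At the edge of the rule, the alpha-mannosidase unigene TRINITY_DN23974_c0_g4_i6_3 was just inside, with 24.1 CPM in Shanxi against 12.02 CPM in its nearest area. TRINITY_DN22940_c0_g8_i2_4, matched to a protein kinase-like protein named IMPAIRED IN BABA-INDUCED STERILITY 1, was just outside, with 16.1 CPM in Shanxi against 8.06 CPM. On the lower side, the tRNA-dihydrouridine synthase unigene TRINITY_DN20143_c3_g2_i6_1 was just inside, with 16.5 CPM in Shanxi against 33.0 CPM, and the unmatched TRINITY_DN9909_c0_g1_i1_3 just outside, with 3.00 CPM against 5.995 CPM. A further 2794 unigenes lay above and 2040 below the 9 other libraries by less than 2-fold.

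A member is a single assembled sequence, and other sequences with the same best protein did not always follow it. The best protein is the match in the Swiss-Prot database, or in the NR database where there was none. Unigenes that share it need not come from a single gene, so a sum can pool related genes. A plant match was found for 1441 higher members (73.4%) and 1252 lower members (71.8%), and the match in the NR database was to carrot for 83.5% and 82.8% of these. When counts of all unigenes with the same best protein were summed, the sum passed the same rule for 600 higher members (41.6%) and 451 lower members (36%). The sum still lay beyond every other area mean, at any fold, for 1027 higher members (71.3%) and 848 lower members (67.7%). A member of the opposite direction shared the best protein of 215 higher members (14.9%) and 226 lower members (18.1%). Protein sums are CPM of plant-matched counts only, a smaller total than that of the single unigenes. In the plot of single unigenes against their protein sums, members lie along the diagonal where the sum follows the unigene and near 0 where it does not.

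**Figure D1:**
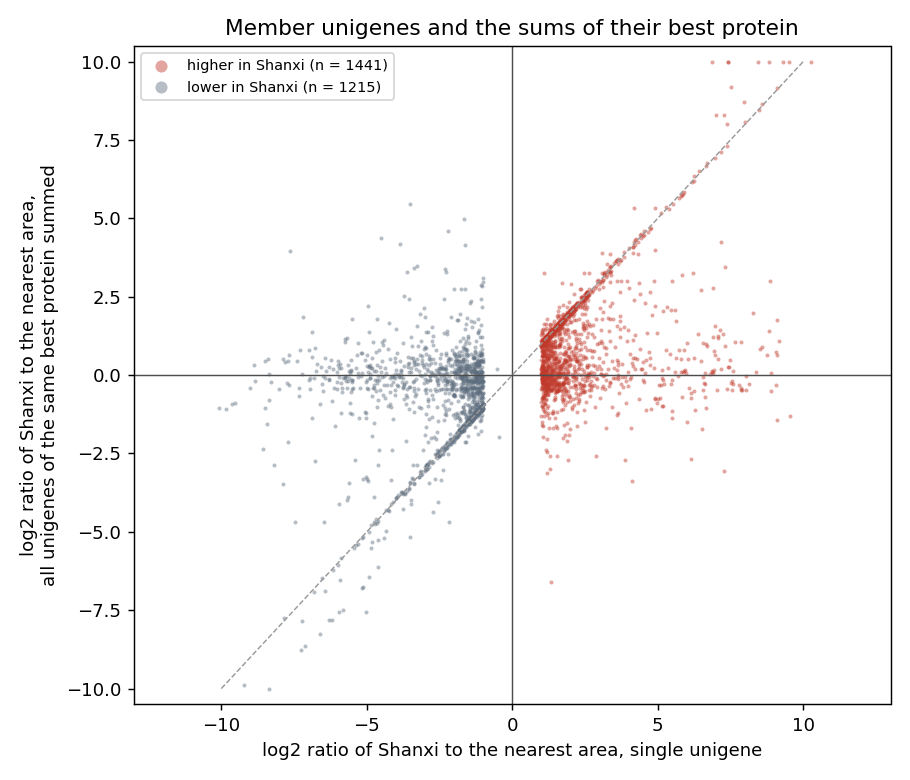
Each point is a member with a best protein. The horizontal axis gives the log2 ratio of its Shanxi mean to the nearest area mean (a mean under 3 counts set to 3 counts). The vertical axis gives the ratio for the sum of all unigenes of that protein, drawn at 10 or -10 where beyond. Sums were set against the highest other area for higher members and the lowest other area for lower members. The dashed line marks equal ratios, lower members whose sum was 0 in Shanxi are not drawn, and the sums of 600 higher and 451 lower members passed the rule.

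Members also differed in the last number of the identifier, which runs from 1 to 4 and whose meaning is not given in the sources used here. Identifiers ending in 4 made up 1223 higher members (62.3%) and 172 lower members (9.87%), against 27% of all unigenes of at least 1 CPM. Those ending in 1 made up 118 higher and 639 lower members, and those ending in 2 made up 108 higher and 589 lower members. The highest area mean was in Shanxi for 39% of unigenes ending in 4, in Chongqing for 45.7% of those ending in 1, and in Hubei for 48.7% of those ending in 2 and 34.9% of those ending in 3. The part of this pattern in the differences of single unigenes was not tested, and protein sums are given beside the members below where a protein had several unigenes.

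**Figure D2:**
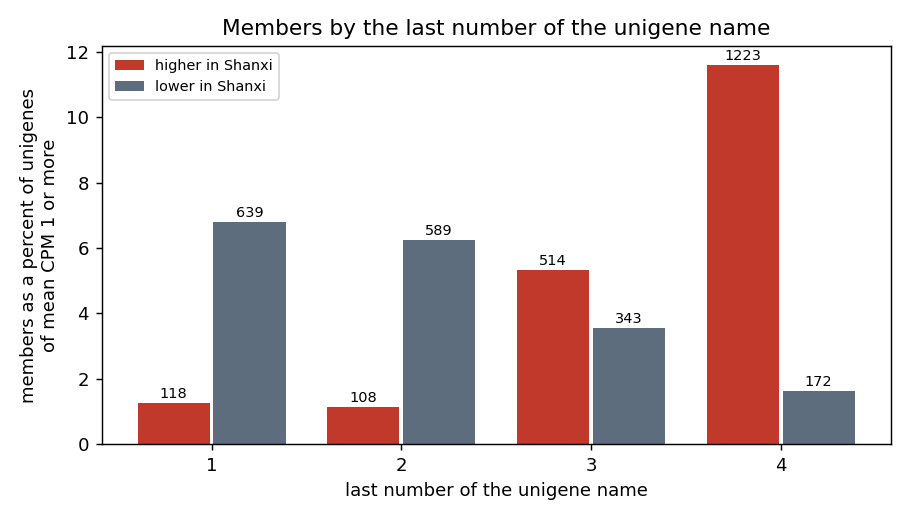
Bars give higher (left) and lower (right) members as a percent of the unigenes of at least 1 CPM with that last number in their identifier, and each bar carries its number of members. Identifiers ending in 4 held 1223 higher and 172 lower members, and those ending in 1 held 118 higher and 639 lower members.

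Grouped by description into 46 lists, the members were spread unevenly around the background of 5.03% higher and 4.47% lower. The share of higher members was 23.3% among lipid transfer proteins, 23.2% among SCPL and BAHD family proteins, 17% among sterol and triterpene enzymes and 14.3% among cell wall remodelling proteins. In the same order, the share of lower members was 0%, 8.93%, 4.26% and 2.69%. Summed over the whole list, lipid transfer, SCPL and BAHD, and cell wall remodelling proteins were highest in Hubei, and sterol and triterpene enzymes in Shanxi. The share of lower members was 12.1% among nitrogen genes, 12% among coumarin enzymes, 11.5% among flavonoid enzymes, 11.4% among dehydrins and late embryogenesis proteins, 11.2% among NLR receptors and 10.3% among sugar transporters. In the same order, the share of higher members was 3.45%, 8%, 3.85%, 4.55%, 9.51% and 1.72%. Coumarin enzymes and NLR receptors thus lay above the background on both sides. The lower shares of the coumarin and flavonoid lists rest on 3 unigenes each. Ribosomal proteins had 4 higher and 8 lower members among 432 unigenes (3 higher and 2 lower by protein sums), and isoprenoid precursor enzymes had no member among 28. These counts are descriptions without a test, and for most lists described below fewer best proteins than unigenes passed the rule. The counts of members in the lists below stand against 5.03% higher and 4.47% lower of all unigenes. Of all 15805 best protein sums of at least 1 CPM, 555 were higher and 464 lower by the rule. The number of best proteins in each list is not given, so no excess is read from the counts by protein sums. The list medians given below are log2 fold changes of Shanxi over each area, and over all plant or unmatched unigenes this median was -0.0011 or nearer to 0 in each contrast.

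**Figure D3:**
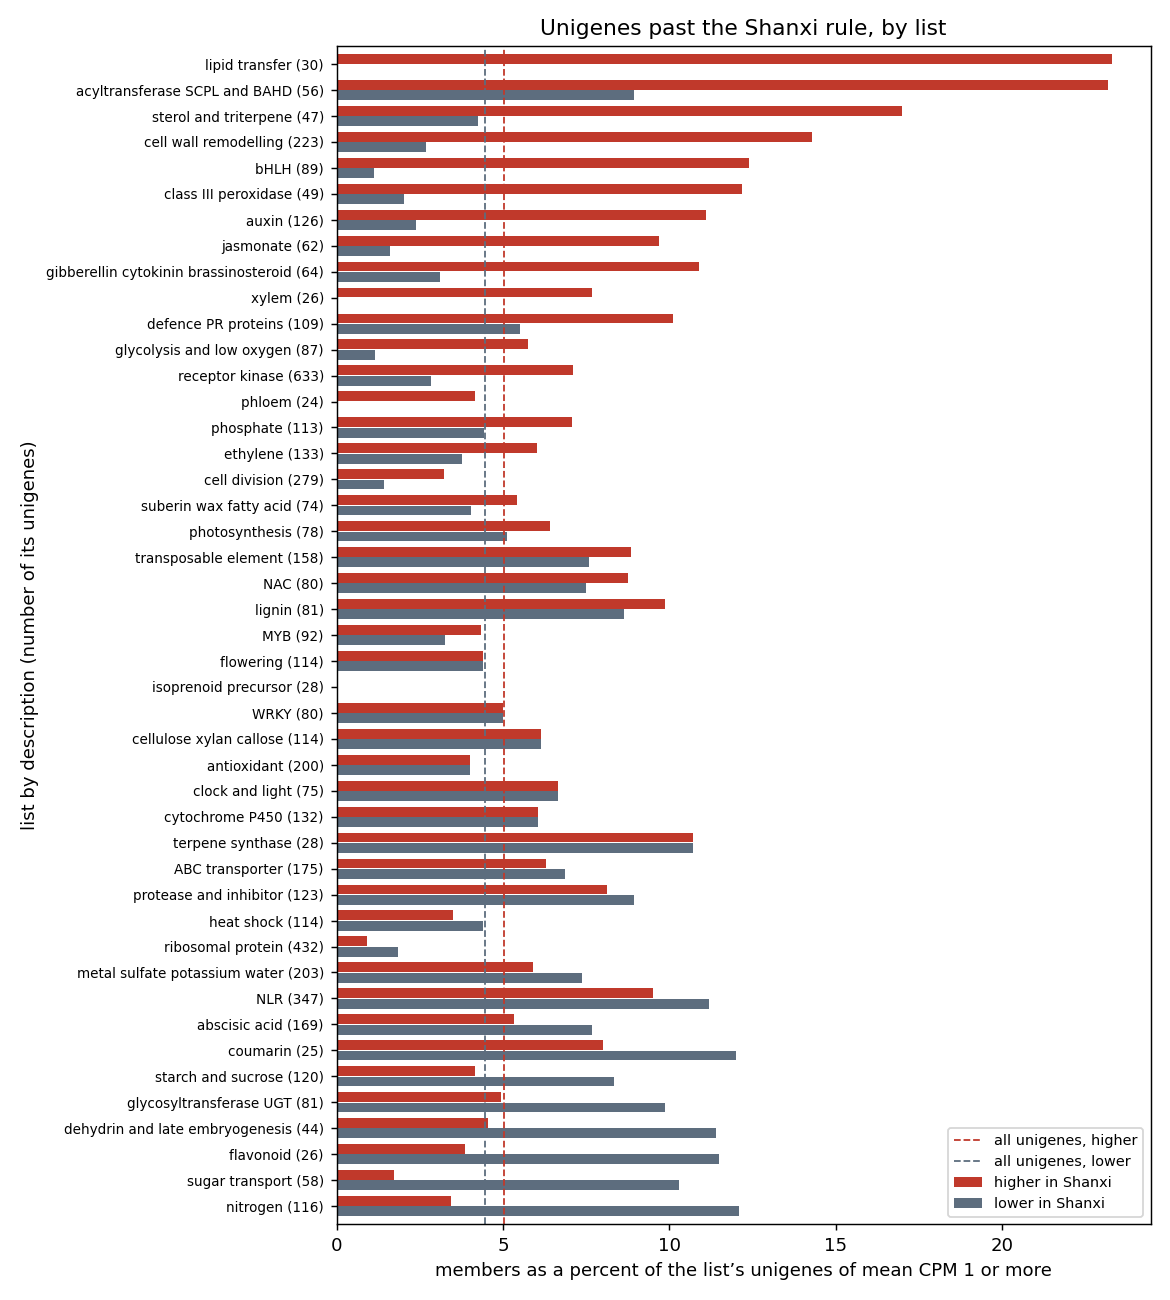
Bars give the higher (upper bar) and lower (lower bar) members as a percent of each list's unigenes of at least 1 CPM, with the number of those unigenes in brackets; dashed lines mark all unigenes at 5.03% higher and 4.47% lower. Lipid transfer proteins reach 23.3% higher with no lower member, and nitrogen genes 3.45% higher and 12.1% lower.

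O-methyltransferases of the phenylpropanoid pathway gave members on both sides, 3 higher and 2 lower of those described here. Caffeic acid 3-O-methyltransferase methylates the ring of lignin precursors, and its match TRINITY_DN23928_c0_g1_i5_3 had 1699, 1478 and 1629.7 CPM in the Shanxi libraries, against 10.03, 7.75 and 9.11 in Chongqing, 60.8, 66.5 and 66.3 in Gansu and 343, 313 and 275 in Hubei. The areas did not overlap, in the order Shanxi, Hubei, Gansu and Chongqing, and the unigene was 5.16-fold higher in Shanxi than in Hubei. Its 2 unigenes together gave 2305 CPM in Shanxi, against 10.8 in Chongqing, 132 in Gansu and 459 in Hubei. Another match, TRINITY_DN23237_c0_g1_i2_4, had 1074, 966 and 1041 CPM in the Shanxi libraries, against 2.70, 0.305 and 0.297 in Chongqing, 40.3, 51.0 and 37.8 in Gansu and 242, 225 and 229 in Hubei. It kept the same order of areas and was 4.42-fold higher in Shanxi than in Hubei. Summed, its 2 unigenes gave 1117 CPM in Shanxi, against 2.08 in Chongqing, 49.6 in Gansu and 240.2 in Hubei. A lower member matched to a further protein of this name, TRINITY_DN22490_c0_g2_i3_2, had 26.2 ± 4.51 CPM in Shanxi, against 99.7 ± 6.36 in Chongqing, 69.4 ± 8.48 in Gansu and 99.1 ± 8.18 in Hubei (mean ± SD, n = 3 libraries per area here and below). Its 3 unigenes together gave 611 CPM in Shanxi, against 130.2 in Chongqing, 120.0 in Gansu and 232 in Hubei, so that this sum was highest in Shanxi although the member was lowest there.

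Bergaptol O-methyltransferase, which makes bergapten, had a member on each side. The higher one, TRINITY_DN22691_c1_g1_i14_3, had 1356, 1165 and 1242 CPM in the Shanxi libraries, against 189.5, 217 and 188 in Chongqing, 351, 423 and 378 in Gansu and 47.5, 54.8 and 69.4 in Hubei. The lower one, TRINITY_DN20534_c0_g1_i1_2, had 9.95, 8.81 and 6.52 CPM in the Shanxi libraries, against 82.7, 72.6 and 72.8 in Chongqing, 178, 206 and 161 in Gansu and 1071, 973 and 815 in Hubei. No area overlapped another in either unigene, and Hubei was lowest in the first and highest in the second. The first was 3.27-fold higher in Shanxi than in Gansu and the second 9.03-fold lower in Shanxi than in Chongqing. All 4 unigenes of this protein together gave 2270.3 CPM in Shanxi, against 590.2 in Chongqing, 1839.9 in Gansu and 1623 in Hubei, so the sum was highest in Shanxi, by less than 2-fold over Gansu.

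Several other members of the phenylpropanoid branches were lower in Shanxi. The scopoletin 8-hydroxylase match TRINITY_DN12820_c0_g2_i3_1, an enzyme of coumarin synthesis in Arabidopsis that the NR database calls flavonol synthase-like, had 0.0149 ± 0.0259 CPM in Shanxi, against 37.2 ± 2.02 in Chongqing, 13.3 ± 1.61 in Gansu and 9.05 ± 3.18 in Hubei. With 1 count in the Shanxi libraries, taken as found, it was lower than in Hubei by 627-fold (exact binomial 95% counting interval 112 to 24801). With Shanxi set to 3 counts, leaving out 1 library at a time gave 138-fold to 248-fold. Its 6 unigenes together were also lowest in Shanxi, at 2.68 CPM in Shanxi, against 44.7 in Chongqing, 15.4 in Gansu and 11.7 in Hubei. The 4-coumarate-CoA ligase-like match TRINITY_DN19403_c0_g1_i1_2, of an enzyme family that activates acids with coenzyme A, had 10.9 ± 0.5 CPM in Shanxi, against 57.4 ± 5.29 in Chongqing, 48.5 ± 4.56 in Gansu and 37.8 ± 2.83 in Hubei. The protein's 2 unigenes together gave 18.0 CPM in Shanxi, against 67.3 in Chongqing, 56.6 in Gansu and 47.7 in Hubei. The cinnamyl alcohol dehydrogenase match TRINITY_DN21375_c0_g1_i2_1, of the enzymes that reduce lignin aldehydes, had 13.9 ± 3.49 CPM in Shanxi, against 137 ± 9.90 in Chongqing, 37.3 ± 0.917 in Gansu and 67.5 ± 7.35 in Hubei, while its 2 unigenes together were nearly level between Shanxi and Gansu, at 133 CPM in Shanxi, against 376 in Chongqing, 147 in Gansu and 188 in Hubei.

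The coumarin list had 2 higher and 3 lower members among 25 unigenes (0 higher and 1 lower by protein sums). Its unigenes together gave 3676 ± 237 CPM in Shanxi, against 933 ± 23.5 in Chongqing, 4528 ± 346 in Gansu and 3075 ± 229 in Hubei. Shanxi thus lay between Gansu and Hubei, and the list as a whole was lowest in Chongqing. The lignin list had 8 higher and 7 lower members among 81 unigenes (4 higher and 3 lower by protein sums), with list medians of 0.33 against Chongqing, -0.25 against Gansu and -0.81 against Hubei. Its unigenes together gave 6273 ± 371 CPM in Shanxi, against 2106 ± 38.3 in Chongqing, 2828 ± 125 in Gansu and 5716 ± 385 in Hubei. Class III peroxidases, which oxidise lignin precursors in the wall, had 6 higher and 1 lower members among 49 unigenes (2 higher and 0 lower by protein sums), with list medians of 1.52 against Chongqing, 1.02 against Gansu and -0.69 against Hubei. The peroxidases together gave 1414 ± 74.8 CPM in Shanxi, against 299 ± 9.20 in Chongqing, 675 ± 41.5 in Gansu and 2491 ± 173 in Hubei. The flavonoid list had 1 higher and 3 lower members among 26 unigenes (1 higher and 2 lower by protein sums), and the entry enzymes of the pathway 0 higher and 1 lower members among 15 unigenes (0 higher and 1 lower by protein sums).

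Cell wall remodelling held 32 higher and 6 lower members among 223 unigenes (14 higher and 2 lower by protein sums). The whole list did not follow its members in every contrast, since its medians were 1.63 against Chongqing, 1.19 against Gansu and -0.50 against Hubei. Its unigenes together gave 11417 ± 339 CPM in Shanxi, against 4978 ± 88.3 in Chongqing, 6474 ± 291 in Gansu and 12298 ± 352 in Hubei, with Shanxi below Hubei.

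Proline-rich proteins are structural proteins of the wall. A proline-rich protein match TRINITY_DN16883_c0_g1_i2_1 had 1100.1, 1103 and 1053 CPM in the Shanxi libraries, against 3.94, 2.92 and 3.47 in Chongqing, 11.7, 16.6 and 15.4 in Gansu and 11.1, 10.7 and 12.6 in Hubei. The 9 other libraries stayed at or below 16.6 CPM, and the unigene was 74.5-fold higher in Shanxi than in Gansu. A further unigene of the same protein, TRINITY_DN23358_c0_g1_i4_4, had 1373, 1227 and 1290.0 CPM in the Shanxi libraries, against 9.47, 7.88 and 5.89 in Chongqing, 14.4, 13.9 and 13.6 in Gansu and 224, 196 and 198 in Hubei. Here Hubei stood between Shanxi and the other areas, and all 5 unigenes together gave 2815 CPM in Shanxi, against 18.2 in Chongqing, 36.4 in Gansu and 296 in Hubei. The match to DC2.15, a proline-rich protein of carrot, TRINITY_DN4978_c0_g1_i1_3, had 411 ± 24.8 CPM in Shanxi, against 2.05 ± 0.642 in Chongqing, 2.43 ± 0.688 in Gansu and 4.91 ± 0.453 in Hubei, and was 83.7-fold higher in Shanxi than in Hubei. Its 10 unigenes together were less far apart, at 2072 CPM in Shanxi, against 561 in Chongqing, 175 in Gansu and 844 in Hubei.

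**Figure D4:**
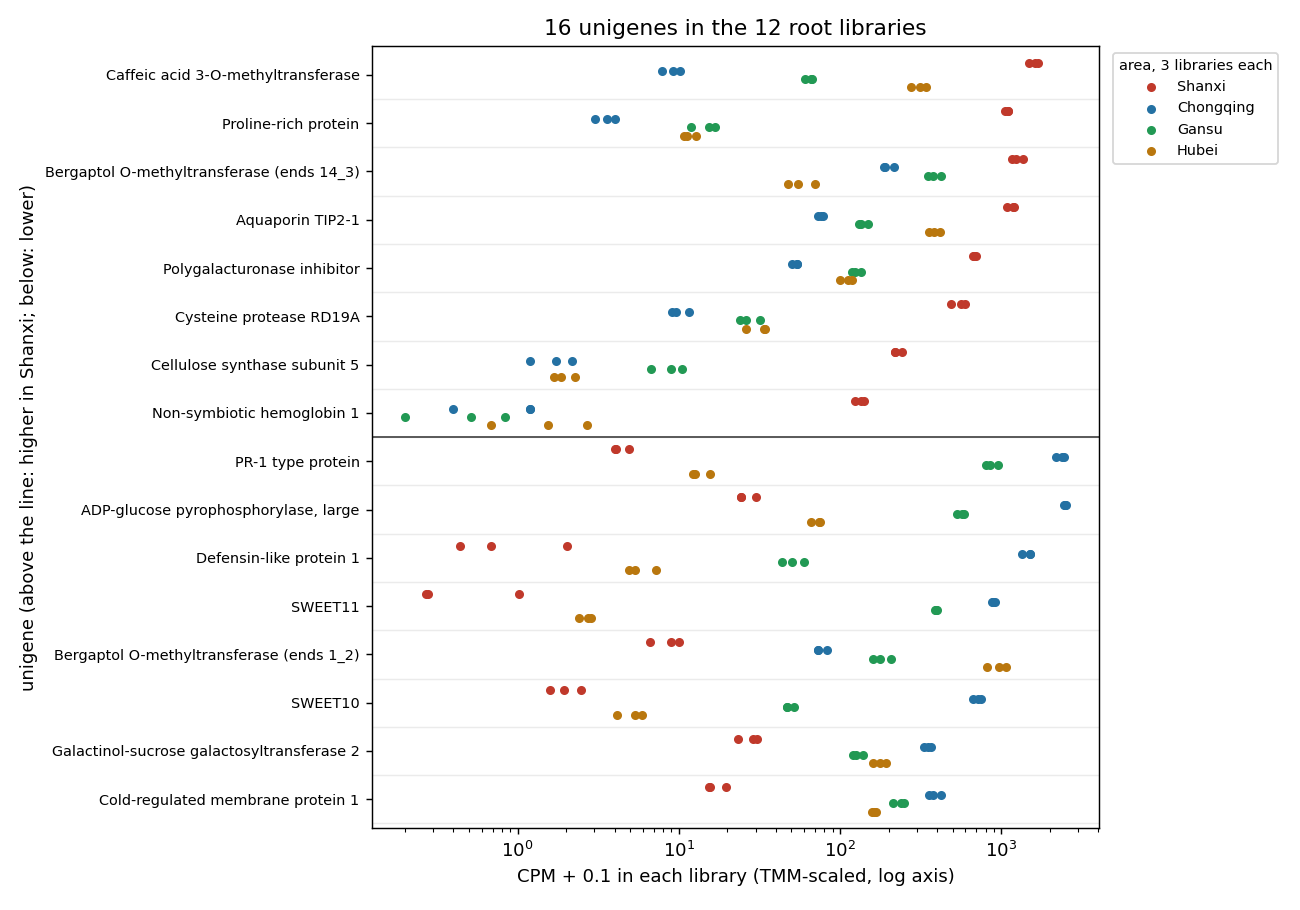
Points are single libraries, 3 per area, for 16 unigenes, with the log horizontal axis giving TMM-scaled CPM plus 0.1, and higher members above the line and lower members below it. Shanxi points overlap no other area in any of the 16 unigenes, which the rule that chose the members required. For the PR-1 type protein, the defensin and SWEET11 the Hubei points lie next to Shanxi and the Chongqing points farthest away.

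Cellulose, xylan and callose genes, which build the wall, had 7 higher and 7 lower members among 114 unigenes (3 higher and 3 lower by protein sums), with list medians of 0.01 against Chongqing, 0.05 against Gansu and -0.51 against Hubei. The share was 6.14% on each side, against 5.03% higher and 4.47% lower of all unigenes. Subunit 5 of cellulose synthase belongs to the complex of the primary wall, and its match TRINITY_DN24337_c0_g1_i38_3 had 241, 219 and 219.7 CPM in the Shanxi libraries, against 1.63, 1.09 and 2.08 in Chongqing, 10.4, 6.59 and 8.88 in Gansu and 1.58, 2.19 and 1.75 in Hubei. It was 26.3-fold higher in Shanxi than in Gansu, and the Gansu libraries all exceeded those of Chongqing and Hubei. Polygalacturonase inhibitors block the pectin-cutting enzymes of pathogens, and the match TRINITY_DN18784_c0_g2_i1_2 had 665, 700.1 and 674 CPM in the Shanxi libraries, against 54.4, 49.95 and 54.1 in Chongqing, 124, 118 and 134 in Gansu and 99.2, 111 and 119 in Hubei. Both were the sole unigene of their best protein. The xyloglucan endotransglucosylase/hydrolase 9 match TRINITY_DN22600_c0_g4_i1_1, of enzymes that cut and rejoin xyloglucan, had 645 ± 44.9 CPM in Shanxi, against 211 ± 12.2 in Chongqing, 34.8 ± 0.482 in Gansu and 134 ± 19.9 in Hubei. Together its 7 unigenes gave 911 CPM in Shanxi, against 299 in Chongqing, 104 in Gansu and 402 in Hubei.

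Among the pectin enzymes given here, pectinesterase 3 alone was a lower member, and its protein sum was not lowest in Shanxi. The polygalacturonase match TRINITY_DN8164_c0_g1_i2_3, which cuts pectin, had 47.6 ± 3.93 CPM in Shanxi, against 0 ± 0 in Chongqing, 0.102 ± 0.103 in Gansu and 0.103 ± 0.0214 in Hubei, and was 459.9-fold higher in Shanxi than in Hubei. Its 12 unigenes together gave 466 CPM in Shanxi, against 22.3 in Chongqing, 27.6 in Gansu and 58.0 in Hubei. The match to rhamnogalacturonan I rhamnosyltransferase 1, which extends the pectin backbone, TRINITY_DN23838_c0_g2_i4_4, had 66.1 ± 4.49 CPM in Shanxi, against 0.329 ± 0.569 in Chongqing, 0.189 ± 0.164 in Gansu and 0.103 ± 0.0488 in Hubei, a 201-fold difference from Chongqing. Nearly all the Chongqing counts were in replicate 1, and leaving out 1 library at a time gave 134-fold to 349.9-fold, highest without Chongqing replicate 1. Its 5 unigenes together gave 116 CPM in Shanxi, against 32.7 in Chongqing, 28.6 in Gansu and 56.2 in Hubei. The pectinesterase 3 match TRINITY_DN23279_c1_g7_i3_3, an enzyme that demethylates pectin, was a lower member with 0.0437 ± 0.00125 CPM in Shanxi, against 100.3 ± 7.19 in Chongqing, 0.672 ± 0.49 in Gansu and 39.1 ± 2.57 in Hubei. With 3 counts in the Shanxi libraries, it was lower than in Gansu by 14.5-fold (exact binomial 95% counting interval 4.63 to 73.3), but its 2 unigenes together gave 9.43 CPM in Shanxi, against 121 in Chongqing, 9.11 in Gansu and 78.6 in Hubei, with Shanxi no longer the lowest. The cellulose synthase-like G2 match TRINITY_DN24561_c0_g1_i4_4 was lower, at 35.2 ± 2.09 CPM in Shanxi, against 73.5 ± 4.49 in Chongqing, 376 ± 18.4 in Gansu and 131 ± 8.43 in Hubei, with its 5 unigenes together at 87.9 CPM in Shanxi, against 92.2 in Chongqing, 458 in Gansu and 188 in Hubei.

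Terpene enzymes varied widely by area. The beta-bisabolene synthase match TRINITY_DN14865_c0_g1_i1_4, named monoterpene synthase-like in NR, had 287, 269 and 282 CPM in the Shanxi libraries, against 0.686, 0.131 and 0.297 in Chongqing, 3.51, 3.14 and 2.92 in Gansu and 127, 131 and 121 in Hubei. Shanxi and Hubei were both high, 2.21-fold apart, and the other areas reached at most 3.51 CPM. The alpha-terpineol synthase match TRINITY_DN22048_c0_g3_i1_2, an enzyme of monoterpene formation, was a lower member with 0.13 ± 0.074 CPM in Shanxi, against 16.1 ± 1.26 in Chongqing, 0.414 ± 0.0971 in Gansu and 3.20 ± 0.201 in Hubei. Its 4 unigenes together gave 116 CPM in Shanxi, against 22.4 in Chongqing, 3.65 in Gansu and 128 in Hubei, so the sum was high in Shanxi and Hubei. The terpene synthase list had 3 higher and 3 lower members among 28 unigenes (1 higher and 2 lower by protein sums) and together gave 820.2 ± 31.1 CPM in Shanxi, against 122 ± 1.97 in Chongqing, 184 ± 2.96 in Gansu and 804 ± 26.7 in Hubei.

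The sterol and triterpene list had 8 higher and 2 lower members among 47 unigenes (5 higher and 0 lower by protein sums). Cycloartenol-C-24-methyltransferase opens the branch to plant sterols, and its match TRINITY_DN16090_c0_g1_i2_3 had 154 ± 9.46 CPM in Shanxi, against 65.7 ± 1.84 in Chongqing, 52.3 ± 3.56 in Gansu and 59.1 ± 3.22 in Hubei. The other areas were close to each other. Summed, its 3 unigenes gave 168 CPM in Shanxi, against 75.4 in Chongqing, 65.4 in Gansu and 76.1 in Hubei. Lipid transfer proteins, small carriers of lipids in the wall, had 7 higher and 0 lower members among 30 unigenes (2 higher and 0 lower by protein sums), with list medians of 1.34 against Chongqing, 1.40 against Gansu and -0.00054 against Hubei. This list together gave 2136 ± 114 CPM in Shanxi, against 1368 ± 50.8 in Chongqing, 1274 ± 117 in Gansu and 3328 ± 258 in Hubei, highest in Hubei. The match to DIR1, which acts in systemic resistance in Arabidopsis, TRINITY_DN8528_c0_g1_i2_2, had 141 ± 13.96 CPM in Shanxi, against 40.5 ± 2.83 in Chongqing, 42.6 ± 3.83 in Gansu and 17.0 ± 1.41 in Hubei, and was the sole unigene of its protein. The EARLI 1 match TRINITY_DN10426_c0_g1_i1_4 had 67.2 ± 2.47 CPM in Shanxi, against 0.33 ± 0.0541 in Chongqing, 14.7 ± 1.93 in Gansu and 7.63 ± 1.47 in Hubei, but its 4 unigenes together gave 402 CPM in Shanxi, against 9.68 in Chongqing, 25.2 in Gansu and 605 in Hubei, highest in Hubei.

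The SCPL and BAHD families, some of whose proteins esterify plant products, had 13 higher and 5 lower members among 56 unigenes (4 higher and 0 lower by protein sums), with list medians of 1.65 against Chongqing, 0.70 against Gansu and -0.39 against Hubei. The list was matched by description and need not hold acyltransferases only. Together it gave 1689 ± 39.4 CPM in Shanxi, against 785 ± 33.5 in Chongqing, 1129 ± 20.7 in Gansu and 2219 ± 35.6 in Hubei, highest in Hubei. Serine carboxypeptidase-like 49 gave a higher member, TRINITY_DN23184_c0_g3_i5_3, with 276 ± 31.7 CPM in Shanxi, against 14.99 ± 1.99 in Chongqing, 11.9 ± 3.71 in Gansu and 13.8 ± 0.357 in Hubei, and a lower member, TRINITY_DN16056_c0_g2_i1_3, with 89.7 ± 3.69 CPM in Shanxi, against 358 ± 17.9 in Chongqing, 299 ± 17.3 in Gansu and 201 ± 18.0 in Hubei. All 5 unigenes of this protein together gave 686 CPM in Shanxi, against 474 in Chongqing, 402 in Gansu and 264 in Hubei, so the sum was higher in Shanxi, by less than 2-fold.

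Starch synthesis, sugar export and raffinose synthesis gave lower members. ADP-glucose pyrophosphorylase commits glucose to starch, and the large subunit match TRINITY_DN22886_c0_g1_i16_4 had 24.3, 29.8 and 24.2 CPM in the Shanxi libraries, against 2501, 2464 and 2506 in Chongqing, 535, 588 and 571 in Gansu and 74.7, 74.1 and 66.5 in Hubei. Chongqing was highest, and the unigene was 2.75-fold lower in Shanxi than in Hubei. Its 6 unigenes together gave 582 CPM in Shanxi, against 4039 in Chongqing, 1591 in Gansu and 494 in Hubei, which placed Shanxi slightly above Hubei. The starch and sucrose list had 5 higher and 10 lower members among 120 unigenes (2 higher and 1 lower by protein sums), and together gave 7381 ± 232 CPM in Shanxi, against 14974 ± 251 in Chongqing, 11727 ± 489.5 in Gansu and 7415 ± 351 in Hubei. Its medians were -0.26 against Chongqing, -0.25 against Gansu and -0.25 against Hubei.

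SWEET proteins carry sugars across membranes along their gradient. The SWEET11 match TRINITY_DN20880_c0_g1_i5_3 had 0.179, 0.169 and 0.925 CPM in the Shanxi libraries, against 888, 880.2 and 920.0 in Chongqing, 402, 390.5 and 395 in Gansu and 2.75, 2.63 and 2.30 in Hubei. It was 6.03-fold lower in Shanxi than in Hubei, and leaving out 1 library at a time gave 4.64-fold to 14.7-fold, highest without Shanxi replicate 3. Its 2 unigenes together gave 0.508 CPM in Shanxi, against 1028 in Chongqing, 468 in Gansu and 2.67 in Hubei. The SWEET10 match TRINITY_DN15681_c0_g1_i1_1 had 1.84, 2.37 and 1.498 CPM in the Shanxi libraries, against 717, 748 and 667 in Chongqing, 46.7, 52.1 and 47.1 in Gansu and 5.26, 5.84 and 4.01 in Hubei. In both, Shanxi and Hubei were low and Chongqing was highest without overlap. The 2 unigenes of the second protein together gave 2.16 CPM in Shanxi, against 873 in Chongqing, 115 in Gansu and 5.44 in Hubei. The sugar transport list had 1 higher and 6 lower members among 58 unigenes (0 higher and 5 lower by protein sums), and together gave 1080.5 ± 45.1 CPM in Shanxi, against 3312 ± 87.7 in Chongqing, 1896 ± 79.2 in Gansu and 1619.7 ± 82.3 in Hubei.

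The galactinol-sucrose galactosyltransferase match TRINITY_DN22672_c0_g1_i6_1, an enzyme of raffinose synthesis, had 27.5 ± 3.64 CPM in Shanxi, against 351 ± 19.6 in Chongqing, 128 ± 9.51 in Gansu and 177 ± 16.8 in Hubei. Its 4 unigenes together gave 56.6 CPM in Shanxi, against 866 in Chongqing, 577 in Gansu and 324 in Hubei. The serine decarboxylase match TRINITY_DN22520_c1_g1_i4_2, which makes ethanolamine from serine, had 85.6 ± 9.38 CPM in Shanxi, against 2130.3 ± 82.3 in Chongqing, 1372 ± 138 in Gansu and 177 ± 10.4 in Hubei. Its 3 unigenes together were lowest in Shanxi too, at 119 CPM in Shanxi, against 2998 in Chongqing, 1932 in Gansu and 245 in Hubei.

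Single unigenes matched to proteins of starch breakdown, glycolysis and fermentation were among the higher members. The higher share was 4.17% in the starch and sucrose list and 5.75% in the glycolysis and low-oxygen list, against 5.03% of all unigenes. The lower share was 8.33% and 1.15%, against 4.47% of all. Plastid glucan phosphorylase releases glucose phosphate from starch, and its match TRINITY_DN23286_c1_g3_i3_4 had 87.7, 96.2 and 83.6 CPM in the Shanxi libraries, against 7.16, 4.62 and 5.80 in Chongqing, 14.9, 13.4 and 10.4 in Gansu and 5.22, 4.64 and 4.31 in Hubei. It was 6.91-fold higher in Shanxi than in Gansu and was the sole unigene of its protein. The inactive beta-amylase 9 match TRINITY_DN23802_c0_g1_i7_4, of a family named for starch cutting, had 196 ± 17.6 CPM in Shanxi, against 44.9 ± 5.40 in Chongqing, 74.1 ± 6.37 in Gansu and 66.2 ± 3.63 in Hubei. The protein's 2 unigenes together gave 315 CPM in Shanxi, against 165 in Chongqing, 282 in Gansu and 99.9 in Hubei. Pyruvate decarboxylase opens ethanol fermentation, and its match TRINITY_DN21842_c0_g1_i1_2 had 518 ± 32.7 CPM in Shanxi, against 243 ± 10.9 in Chongqing, 90.8 ± 6.19 in Gansu and 231 ± 15.9 in Hubei. The cytosolic glyceraldehyde-3-phosphate dehydrogenase match TRINITY_DN23355_c0_g1_i7_3, an enzyme of glycolysis, had 2809.5 ± 282 CPM in Shanxi, against 1340.4 ± 65.9 in Chongqing, 1363 ± 157 in Gansu and 1118 ± 113 in Hubei. Together its 3 unigenes gave 4352 CPM in Shanxi, against 3207 in Chongqing, 3031 in Gansu and 2165 in Hubei.

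Non-symbiotic hemoglobin, a protein known from plant tissue short of oxygen, matched TRINITY_DN24597_c1_g1_i4_4, with 142, 123 and 134 CPM in the Shanxi libraries, against 0.3, 1.09 and 1.10 in Chongqing, 0.731, 0.101 and 0.411 in Gansu and 2.61, 0.58 and 1.45 in Hubei. It was 85.9-fold higher in Shanxi than in Hubei, and leaving out 1 library at a time gave 65.5-fold to 131-fold, highest without Hubei replicate 1. The list of glycolysis and low-oxygen genes had 5 higher and 1 lower members among 87 unigenes (4 higher and 1 lower by protein sums), with medians of 0.09 against Chongqing, 0.03 against Gansu and 0.13 against Hubei, so these members stood in a list whose medians lay near 0.

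Secreted defence proteins were split. The PR-1 type match TRINITY_DN23444_c1_g1_i1_1, of a family used as a sign of defence, had 3.99, 3.94 and 4.80 CPM in the Shanxi libraries, against 2366, 2443 and 2180.0 in Chongqing, 853, 961 and 808 in Gansu and 15.6, 12.2 and 12.5 in Hubei. It was 3.16-fold lower in Shanxi than in Hubei, with Shanxi and Hubei both far below Gansu and Chongqing. Summed, its 2 unigenes gave 4.61 CPM in Shanxi, against 2626 in Chongqing, 995 in Gansu and 15.9 in Hubei. The defensin match TRINITY_DN8654_c0_g1_i1_1, of small antifungal peptides, had 0.582, 0.339 and 1.94 CPM in the Shanxi libraries, against 1500.0, 1508 and 1339 in Chongqing, 49.9, 60.0 and 43.6 in Gansu and 7.17, 5.22 and 4.78 in Hubei. It was 6.005-fold lower in Shanxi than in Hubei, and leaving out 1 library at a time gave 4.54-fold to 12.4-fold, highest without Shanxi replicate 3. The endochitinase match TRINITY_DN22591_c0_g1_i3_3, which cuts chitin, had 121 ± 7.59 CPM in Shanxi, against 2569 ± 121 in Chongqing, 1891 ± 140.3 in Gansu and 334 ± 34.3 in Hubei. The protein's 3 unigenes together gave 558 CPM in Shanxi, against 4803 in Chongqing, 4514 in Gansu and 597 in Hubei, close between Shanxi and Hubei.

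On the higher side, the snakin-2 match TRINITY_DN18686_c0_g1_i1_4, an antimicrobial peptide, had 68.6 ± 4.32 CPM in Shanxi, against 0.115 ± 0.0998 in Chongqing, 0.0937 ± 0.0101 in Gansu and 31.1 ± 0.952 in Hubei. The osmotin-like match TRINITY_DN11750_c0_g1_i1_4, of the thaumatin-like defence proteins, had 66.0 ± 6.07 CPM in Shanxi, against 3.18 ± 0.562 in Chongqing, 2.92 ± 0.342 in Gansu and 11.9 ± 2.04 in Hubei. Together its 3 unigenes gave 78.2 CPM in Shanxi, against 37.8 in Chongqing, 10.9 in Gansu and 25.0 in Hubei. RD19A is a cysteine protease induced by drought in Arabidopsis, and its match TRINITY_DN15967_c0_g1_i1_4 had 600.3, 490.1 and 561 CPM in the Shanxi libraries, against 11.5, 9.45 and 9.02 in Chongqing, 26.0, 31.8 and 24.0 in Gansu and 33.9, 34.2 and 26.0 in Hubei. It was 17.6-fold higher in Shanxi than in Hubei. Summed, its 2 unigenes gave 759 CPM in Shanxi, against 15.1 in Chongqing, 51.0 in Gansu and 39.98 in Hubei. The list of defence proteins had 11 higher and 6 lower members among 109 unigenes (3 higher and 2 lower by protein sums) and together gave 23721 ± 1529 CPM in Shanxi, against 13909 ± 712 in Chongqing, 25047 ± 1841 in Gansu and 24221 ± 1972 in Hubei. Unigenes with a fungal match took 0.326% to 0.493% of counts in the Shanxi libraries and 0.157% to 0.339% in the 9 others, and those with a viral match 3.2% to 3.33% in Shanxi and at most 0.0105% elsewhere. The part of these shares in the defence members was not tested.

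NLR proteins, the intracellular immune receptors, had 33 higher and 39 lower members among 347 unigenes (6 higher and 5 lower by protein sums). The RPV1 match TRINITY_DN22107_c0_g1_i1_1 had 157 ± 10.2 CPM in Shanxi, against 44.7 ± 1.33 in Chongqing, 48.2 ± 4.92 in Gansu and 22.95 ± 1.19 in Hubei. A further RPV1 match, TRINITY_DN25114_c0_g1_i13_3, had 0 ± 0 CPM in Shanxi, against 48.5 ± 4.23 in Chongqing, 10.3 ± 2.84 in Gansu and 34.4 ± 6.59 in Hubei. With no count in Shanxi, set to 3 counts over the area, it was at least 237-fold lower than in Gansu. All 68 unigenes of this protein together gave 699 CPM in Shanxi, against 539.7 in Chongqing, 495 in Gansu and 667 in Hubei. The match to the resistance protein At1g50180, TRINITY_DN24772_c1_g1_i1_4, had 134 ± 6.24 CPM in Shanxi, against 2.95 ± 0.401 in Chongqing, 1.10 ± 1.18 in Gansu and 59.7 ± 7.87 in Hubei. The protein's 20 unigenes together gave 489.8 CPM in Shanxi, against 203 in Chongqing, 119.6 in Gansu and 269 in Hubei. Receptor kinases of the cell surface had 45 higher and 18 lower members among 633 unigenes (7 higher and 7 lower by protein sums). Shares were 9.51% higher and 11.2% lower for NLR proteins, and 7.11% and 2.84% for receptor kinases, against 5.03% and 4.47% of all unigenes.

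Vacuolar water channels had members on both sides. The TIP2-1 match TRINITY_DN25381_c0_g1_i2_3 had 1208, 1094 and 1179.6 CPM in the Shanxi libraries, against 78.7, 76.6 and 72.9 in Chongqing, 132, 149 and 135 in Gansu and 416, 381 and 354 in Hubei. It was 3.02-fold higher in Shanxi than in Hubei and the sole unigene of its protein. The TIP1-1 match TRINITY_DN10127_c0_g1_i1_4 was higher, with 501 ± 20.7 CPM in Shanxi, against 74.0 ± 2.91 in Chongqing, 27.6 ± 2.40 in Gansu and 146 ± 14.1 in Hubei, but its 3 unigenes together gave 1576 CPM in Shanxi, against 1839 in Chongqing, 467 in Gansu and 2657 in Hubei. Another TIP1-1 match, TRINITY_DN14222_c0_g1_i1_1, had no count in Shanxi, against 7081 counts in Chongqing, 2557 in Gansu and 11580.0 in Hubei. It was at least 912-fold lower than in Gansu with Shanxi set to 3 counts. Together its 3 unigenes gave 21.5 CPM in Shanxi, against 115 in Chongqing, 45.5 in Gansu and 180.3 in Hubei. The metallothionein match TRINITY_DN21621_c0_g1_i4_3, of proteins that bind metal ions, had 594 ± 37.9 CPM in Shanxi, against 2163 ± 98.9 in Chongqing, 1449 ± 62.7 in Gansu and 1231 ± 63.8 in Hubei. The list of metal, sulfate, potassium and water genes had 12 higher and 15 lower members among 203 unigenes (4 higher and 10 lower by protein sums). Its shares were 5.91% higher and 7.39% lower, against 5.03% and 4.47% of all unigenes.

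The nitrogen list had 4 higher and 14 lower members among 116 unigenes (1 higher and 8 lower by protein sums). NPF2.9 loads nitrate into root phloem in Arabidopsis, and its match TRINITY_DN19797_c0_g1_i7_1, called NPF2.11-like in NR, had 42.4, 44.3 and 41.3 CPM in the Shanxi libraries, against 216, 221 and 218 in Chongqing, 290.0, 312 and 303 in Gansu and 109.5, 106 and 102 in Hubei. It was 2.48-fold lower in Shanxi than in Hubei and the sole unigene of its protein. The NPF1.1 match TRINITY_DN22683_c0_g4_i13_4, also of the nitrate and peptide transporter family, had 4.38 ± 0.561 CPM in Shanxi, against 117 ± 4.201 in Chongqing, 152 ± 16.3 in Gansu and 179 ± 12.7 in Hubei. Summed, its 9 unigenes gave 20.1 CPM in Shanxi, against 491 in Chongqing, 298 in Gansu and 304 in Hubei. The NPF6.2 match TRINITY_DN9572_c0_g1_i2_4, a nitrate transporter of leaf stalks in Arabidopsis, was higher, with 107 ± 7.33 CPM in Shanxi, against 0.942 ± 0.251 in Chongqing, 4.80 ± 0.318 in Gansu and 8.29 ± 0.739 in Hubei. The protein's 4 unigenes together gave 117 CPM in Shanxi, against 18.6 in Chongqing, 10.53 in Gansu and 16.02 in Hubei. The list medians were 0.14 against Chongqing, 0.30 against Gansu and -0.22 against Hubei. Its unigenes together gave 3357 ± 178 CPM in Shanxi, against 4386 ± 153 in Chongqing, 3837 ± 176 in Gansu and 4374 ± 234 in Hubei. The sum was thus lowest in Shanxi, while the medians against Chongqing and Gansu lay above 0.

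Abscisic acid is the hormone of water deficit, and dehydrins and late embryogenesis proteins accumulate in dry or cold tissue. The abscisic acid list had 9 higher and 13 lower members among 169 unigenes (3 higher and 4 lower by protein sums), with medians of -0.20 against Chongqing, -0.22 against Gansu and -0.25 against Hubei. The dehydrin list had 2 higher and 5 lower members among 44 unigenes (0 higher and 0 lower by protein sums), with medians of -0.75 against Chongqing, -0.38 against Gansu and -0.11 against Hubei. Dehydrin list unigenes together gave 7913 ± 475 CPM in Shanxi, against 15350 ± 555 in Chongqing, 15711 ± 923 in Gansu and 5063 ± 258 in Hubei. This sum was thus lowest in Hubei, although the median against Hubei lay below 0. Protein phosphatase 2C 37 holds back the abscisic acid response in Arabidopsis, and its match TRINITY_DN20134_c0_g1_i9_2 had 23.9, 24.7 and 23.6 CPM in the Shanxi libraries, against 183, 176 and 171 in Chongqing, 195, 203 and 186 in Gansu and 91.4, 85.5 and 79.1 in Hubei. It was 3.55-fold lower in Shanxi than in Hubei and the sole unigene of its protein. The abscisic acid receptor PYL4 match TRINITY_DN25279_c1_g3_i1_3 was higher, with 152 ± 11.4 CPM in Shanxi, against 60.5 ± 4.99 in Chongqing, 44.0 ± 3.16 in Gansu and 48.2 ± 2.64 in Hubei. Together its 5 unigenes gave 262 CPM in Shanxi, against 69.3 in Chongqing, 54.6 in Gansu and 104 in Hubei.

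Cold-responsive members and their protein sums did not always share a direction. The cold-regulated plasma membrane protein 1 match TRINITY_DN22966_c0_g3_i1_2 was lower, with 16.8 ± 2.44 CPM in Shanxi, against 386 ± 35.6 in Chongqing, 235 ± 18.3 in Gansu and 163 ± 5.18 in Hubei, but its 4 unigenes together gave 1584 CPM in Shanxi, against 2335 in Chongqing, 1387 in Gansu and 535 in Hubei, with Shanxi above Gansu and Hubei. The low-temperature-induced 65 kDa protein, an abscisic acid target in Arabidopsis, gave the lower member TRINITY_DN25008_c2_g1_i4_3, with 71.1 ± 7.35 CPM in Shanxi, against 619 ± 42.1 in Chongqing, 589 ± 55.7 in Gansu and 183 ± 13.5 in Hubei. It also gave the higher member TRINITY_DN22520_c0_g1_i4_3, with 95 ± 6.12 CPM in Shanxi, against 11.7 ± 0.665 in Chongqing, 42.6 ± 3.26 in Gansu and 35.2 ± 1.75 in Hubei. All 3 unigenes of this protein together gave 303 CPM in Shanxi, against 1307 in Chongqing, 1594 in Gansu and 393 in Hubei, lowest in Shanxi.

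Auxin genes had 14 higher and 3 lower members among 126 unigenes (6 higher and 1 lower by protein sums), and gibberellin, cytokinin and brassinosteroid genes 7 higher and 2 lower members among 64 unigenes (4 higher and 1 lower by protein sums). Auxin efflux carrier 3 moves auxin out of cells, and its match TRINITY_DN23270_c0_g1_i6_4 had 83.5, 77.6 and 77.9 CPM in the Shanxi libraries, against 22.5, 24.9 and 21.6 in Chongqing, 22.1, 25.0 and 22.5 in Gansu and 25.3, 24.7 and 22.8 in Hubei. The 9 other libraries lay between 21.6 and 25.3 CPM, and the test among the other areas gave an adjusted p of 0.66 (edgeR quasi-likelihood test), which does not show that they are equal. Its 2 unigenes together gave 96.1 CPM in Shanxi, against 34.3 in Chongqing, 42.2 in Gansu and 38.1 in Hubei. Gibberellin 2-beta-dioxygenase inactivates gibberellins, and its match TRINITY_DN21676_c0_g6_i1_1 had 168, 161 and 160.3 CPM in the Shanxi libraries, against 14.5, 16.03 and 15 in Chongqing, 14.4, 10.2 and 13.3 in Gansu and 11.3, 13.02 and 11.1 in Hubei. It was 10.7-fold higher in Shanxi than in Chongqing. Summed, its 6 unigenes gave 274 CPM in Shanxi, against 55.3 in Chongqing, 32.8 in Gansu and 23.4 in Hubei.

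Ethylene genes had 8 higher and 5 lower members among 133 unigenes (5 higher and 0 lower by protein sums), and jasmonate genes 6 higher and 1 lower members among 62 unigenes (2 higher and 0 lower by protein sums). Shares were 6.02% higher and 3.76% lower for ethylene, and 9.68% and 1.61% for jasmonate, against 5.03% and 4.47% of all unigenes. Aminocyclopropane-carboxylate oxidase makes ethylene, and its match TRINITY_DN14571_c0_g1_i1_3 had 161 ± 3.26 CPM in Shanxi, against 1.03 ± 0.341 in Chongqing, 1.22 ± 0.0539 in Gansu and 56.2 ± 0.745 in Hubei, with Hubei between Shanxi and the others. A lower member of the same enzyme, TRINITY_DN16141_c0_g1_i2_1, had 22.9 ± 1.71 CPM in Shanxi, against 75.8 ± 0.975 in Chongqing, 486 ± 31.5 in Gansu and 82.4 ± 5.73 in Hubei, with Gansu above all. The protein's 2 unigenes together gave 61.1 CPM in Shanxi, against 85.6 in Chongqing, 584 in Gansu and 86.7 in Hubei. The jasmonate-induced protein match TRINITY_DN21049_c0_g2_i5_4, a ribosome-inactivating protein in barley, had 302 ± 21.1 CPM in Shanxi, against 72.4 ± 6.16 in Chongqing, 108 ± 11.96 in Gansu and 83.0 ± 7.44 in Hubei. Together its 2 unigenes gave 380.0 CPM in Shanxi, against 111 in Chongqing, 154 in Gansu and 135 in Hubei.

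Light and clock genes had 5 higher and 5 lower members among 75 unigenes (0 higher and 3 lower by protein sums). That was 6.67% on each side, against 5.03% higher and 4.47% lower of all unigenes. Cryptochromes are blue-light receptors, and the cryptochrome-1 match TRINITY_DN25032_c0_g4_i2_3 had 94.1 ± 8.09 CPM in Shanxi, against 12.01 ± 1.502 in Chongqing, 13.1 ± 5.19 in Gansu and 47.0 ± 3.27 in Hubei. Summed, its 4 unigenes gave 376 CPM in Shanxi, against 164 in Chongqing, 126 in Gansu and 201 in Hubei. The cryptochrome-2 match TRINITY_DN23163_c0_g3_i4_3, called cryptochrome-1-like in NR, had 99.0 ± 1.67 CPM in Shanxi, against 36.4 ± 2.97 in Chongqing, 40.9 ± 1.29 in Gansu and 47.4 ± 2.51 in Hubei. The protein's 5 unigenes together gave 214 CPM in Shanxi, against 134 in Chongqing, 117 in Gansu and 108 in Hubei. Adagio 3, a blue-light F-box protein that times flowering in Arabidopsis, matched the lower member TRINITY_DN15635_c0_g1_i1_2, with 27.4, 21.6 and 23.7 CPM in the Shanxi libraries, against 257, 258 and 237 in Chongqing, 110.0, 123 and 111 in Gansu and 55.4, 50.7 and 53.1 in Hubei. Its areas did not overlap, in the order Chongqing, Gansu, Hubei and Shanxi. The clock regulator APRR5 match TRINITY_DN21735_c0_g1_i3_4 was lower as well, with 7.11 ± 1.58 CPM in Shanxi, against 41.5 ± 4.49 in Chongqing, 20.3 ± 2.49 in Gansu and 17.2 ± 3.29 in Hubei. Together its 4 unigenes gave 19.6 CPM in Shanxi, against 162 in Chongqing, 65.0 in Gansu and 61.8 in Hubei. The MADS-box match TRINITY_DN21346_c0_g2_i4_4, named SOC1 after a flowering regulator and AGL19 in NR, was higher, with 148 ± 7.55 CPM in Shanxi, against 64.3 ± 4.001 in Chongqing, 37.5 ± 5.19 in Gansu and 61.0 ± 6.37 in Hubei. Summed, its 3 unigenes gave 247 CPM in Shanxi, against 90.8 in Chongqing, 119 in Gansu and 82.3 in Hubei. The hour of sampling is not given in the sources used here.

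Among transcription factors, the bHLH family had 11 higher and 1 lower members among 89 unigenes (3 higher and 1 lower by protein sums). The bHLH93 match TRINITY_DN23452_c0_g4_i1_3 had 91.5 ± 15 CPM in Shanxi, against 6.41 ± 0.742 in Chongqing, 18.8 ± 4.42 in Gansu and 33.3 ± 7.16 in Hubei. The protein's 5 unigenes together gave 181 CPM in Shanxi, against 8.29 in Chongqing, 35.6 in Gansu and 60.6 in Hubei. HD-ZIP factors of the HDG group act in the epidermis, and the HDG11 match TRINITY_DN23108_c1_g3_i4_4 had 45.5, 43.2 and 42.9 CPM in the Shanxi libraries, against 0.3, 0 and 0 in Chongqing, 0, 0.0507 and 0.0411 in Gansu and 0.0931, 0.312 and 0.512 in Hubei. It was 143-fold higher in Shanxi than in Hubei, and leaving out 1 library at a time gave 106-fold to 216-fold, highest without Hubei replicate 3. Its 3 unigenes together gave 47.8 CPM in Shanxi, against 0.113 in Chongqing, 2.52 in Gansu and 0.351 in Hubei, with Gansu the nearest area. The HDG7 match TRINITY_DN23924_c0_g2_i8_4 had 0.0282 ± 0.0489 CPM in Shanxi, against 29.9 ± 2.81 in Chongqing, 26.2 ± 3.19 in Gansu and 53.7 ± 6.08 in Hubei. With 2 counts in the Shanxi libraries, taken as found, it was lower than in Gansu by 903-fold (exact binomial 95% counting interval 249.7 to 7464). With Shanxi set to 3 counts, leaving out 1 library at a time gave 399-fold to 640-fold. The NAC factor match TRINITY_DN24557_c2_g1_i1_3 was lower, with 14.5 ± 2.12 CPM in Shanxi, against 233 ± 5.67 in Chongqing, 387 ± 26.5 in Gansu and 46.03 ± 3.56 in Hubei. Together its 3 unigenes gave 45.7 CPM in Shanxi, against 367 in Chongqing, 654 in Gansu and 65.8 in Hubei. NAC factors had 7 higher and 6 lower members among 80 unigenes (2 higher and 1 lower by protein sums), MYB factors 4 higher and 3 lower members among 92 unigenes (2 higher and 1 lower by protein sums) and WRKY factors 4 higher and 4 lower members among 80 unigenes (1 higher and 2 lower by protein sums). Higher and lower shares were 12.4% and 1.12% for bHLH and 8.75% and 7.5% for NAC factors. They were 4.35% and 3.26% for MYB and 5% on each side for WRKY, against 5.03% and 4.47% of all unigenes.

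Mitochondrial serine hydroxymethyltransferase interconverts serine and glycine, and its match TRINITY_DN19136_c0_g2_i2_4 had 163, 141 and 153 CPM in the Shanxi libraries, against 0, 0 and 0 in Chongqing, 0, 0 and 0.37 in Gansu and 0, 0.0892 and 0.128 in Hubei. It was 1234-fold higher in Shanxi than in Gansu, where all counts were in replicate 3, and leaving out 1 library at a time gave 823-fold to 2100.5-fold, highest without that library. The RuBisCO small chain match TRINITY_DN20048_c0_g1_i1_4, part of the carbon-fixing enzyme of green tissue, had 249.6 ± 13.3 CPM in Shanxi, against 20.7 ± 1.42 in Chongqing, 93.8 ± 5.59 in Gansu and 1.44 ± 0.752 in Hubei. Another small chain match with a different best protein, TRINITY_DN19621_c0_g1_i7_1, was lower, with 6.17 ± 2.19 CPM in Shanxi, against 170.0 ± 13.1 in Chongqing, 76.6 ± 11.97 in Gansu and 174 ± 14.8 in Hubei. Photosynthesis unigenes had 5 higher and 4 lower members among 78 unigenes (2 higher and 4 lower by protein sums) and together gave 994 ± 43.6 CPM in Shanxi, against 1115 ± 33.3 in Chongqing, 674 ± 42.1 in Gansu and 1126 ± 55.9 in Hubei, so that this sum was lowest in Gansu. Photosynthesis shares were 6.41% higher and 5.13% lower, against 5.03% and 4.47% of all unigenes.

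Lists that stand for other tissues of a root were read in the same way. Xylem genes had 2 higher and 0 lower members among 26 unigenes (1 higher and 1 lower by protein sums), a higher share of 7.69%, and together gave 336 ± 10.2 CPM in Shanxi, against 229 ± 3.13 in Chongqing, 182 ± 6.81 in Gansu and 844 ± 55.0 in Hubei. Phloem genes had 1 higher and 0 lower members among 24 unigenes (0 higher and 0 lower by protein sums), a higher share of 4.17%, and together gave 570.1 ± 24.4 CPM in Shanxi, against 308 ± 9.06 in Chongqing, 489.9 ± 20.4 in Gansu and 456 ± 28.6 in Hubei. Cell division genes had 9 higher and 4 lower members among 279 unigenes (2 higher and 3 lower by protein sums), a higher share of 3.23%, and together gave 6143 ± 189 CPM in Shanxi, against 6017 ± 97.6 in Chongqing, 5330.3 ± 122 in Gansu and 6499 ± 245 in Hubei. Xylem genes were thus highest in Hubei and phloem genes highest in Shanxi, and the part of tissue make-up in the members' differences was not tested.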

How the data were processed

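The authors deposited, for each unigene and library, estimated counts and FPKM, with protein matches from several databases. FPKM, which divides by length and depth, served here as an alternative only. RSEM, featureCounts, Bowtie2, Trimmomatic, FastQC and DESeq2 appear without roles per the submitters' processing notes, and unigene names carry the assembler's prefix TRINITY. Tool settings, and how redundant unigenes were merged, were not stated there. Reads that fit several near-identical unigenes are shared out by estimation, which can split a gene among members.

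Expected counts were rounded to whole numbers and fitted in edgeR 4.0.16 (R 4.3.3) by the quasi-likelihood test with TMM factors (0.941 to 1.05), filterByExpr by area and all 12 libraries in 1 fit, with 8 residual degrees of freedom and Benjamini-Hochberg adjustment over 60756 unigenes at 0.05. The script was tested on simulated data. CPM used the same factors. Each library held 19920182 to 23319714 counts, and intervals cover counting error only. Unigenes were classed by the organism of their match: 38117 plant, 27778 without a match, 728 fungal, 10 viral and 799 other, the last 3 left out of the members. Best-protein sums are CPM of plant-matched counts only, so they are on another scale than single unigenes. Ratios to an area with fewer than 3 counts used 3 counts over that area. Only ratios given with a counting interval used the counts as found.

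Members and lists were chosen with earlier results of these data known. Unigenes named are, among members with an informative description and mean CPM of at least 10, the 15 of largest ratio and the 10 of highest level per direction, and the 2 of highest level per list and direction with mean CPM of at least 1. From these 197, the 73 that lead each group are given, a choice made after values were seen. Leading unigenes whose databases name unrelated proteins were left out. Libraries of an area differed by more than sampling noise (chi-square per degree of freedom 4.47 to 8.85). Alternatives were DESeq2 1.42.0, other scalings, filters, fold limits, left-out libraries, a replicate block and protein sums. No sequence is printed, as none is in the files used here.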

Additional observations from a re-analysis of the deposited data

Results flagged for a closer look

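Outside the plant unigenes, 2 unigenes with a viral match had a signal in the Shanxi libraries far above the other areas. TRINITY_DN22823_c0_g2_i2_4, matched to a viral polyprotein, averaged 15542 CPM in Shanxi, with 16501, 14316 and 15809 CPM in the 3 libraries, against 0.0847 to 14.02 CPM in Chongqing, 0.0487 to 25.7 CPM in Gansu and 0.186 to 15.7 CPM in Hubei. TRINITY_DN22910_c0_g2_i1_3, matched to a nepovirus coat protein, averaged 17572 CPM in Shanxi, with 18128, 16690.0 and 17899 CPM in the 3 libraries, against 0.0424 to 18.8 CPM in Chongqing, 0 to 33.9 CPM in Gansu and 1.02 to 14.8 CPM in Hubei. Nepoviruses are RNA viruses of plants, many of them carried by nematodes. These unigenes took 3.2% to 3.33% of the Shanxi counts and at most 0.00623% of the counts of any other library. They are not members, and their part in the members' differences was not tested. Since viral counts are in the library totals, the rule was also applied to totals of plant and unmatched unigenes alone, an alternative chosen after seeing the data, which gave 2082 higher and 1655 lower unigenes.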

How the results depend on the processing

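Other scalings left the numbers of members within 1.5 times: with the authors' FPKM, 96.5% of the higher and 98.7% of the lower members were kept. The higher members numbered 3103 at 1.5-fold, 799 at 4-fold, 813 at a mean of 5 CPM or more and 3725 with no minimum, and the lower members 960 at 4-fold and 881 at 5 CPM or more. Leaving out 1 library gave 1801 to 2031 higher and 1752 to 1980 lower members, of which 1324 to 1352 and 1207 to 1312 were called among the other areas, and 26700 to 30377 calls against Chongqing, 24534 to 27345 against Gansu and 24682 to 28372 against Hubei.

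Summing counts per best protein left 555 higher and 464 lower proteins, 444 and 399 of them called among the other areas, with 12309 calls against Chongqing, 11935 against Gansu and 11411 against Hubei; fewer features were tested. For these sums, Shanxi was set against the highest other area for higher members and the lowest other area for lower members. After a change of direction, that area need not be the nearest. Of the 73 named unigenes, this log2 ratio was classed as the same in 29, as moved in 33 and as turned round in 11. The ratios that turned round are given next. Of higher members, the ratio was -2.40 for the low-temperature-induced protein TRINITY_DN22520_c0_g1_i4_3, -0.59 for EARLI 1 and -0.75 for TIP1-1. Of lower members, it was 0.24 for ADP-glucose pyrophosphorylase, 1.94 for bergaptol O-methyltransferase, 2.35 for caffeic acid O-methyltransferase, 4.99 for alpha-terpineol synthase, 1.38 for serine carboxypeptidase-like 49, 1.57 for the cold-regulated membrane protein, 0.050 for pectinesterase 3 and 0.50 for RPV1. The cause was not tested.

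A replicate block gave 27769 calls against Chongqing, 25590 against Gansu and 25793 against Hubei, and 1335 higher and 1248 lower members called among the other areas. The numbers do not pair the libraries: deviations of same-numbered libraries correlated at -0.13 to 0.12, those of others at -0.16 to 0.18, and 3 of 12 libraries correlated best with their own number. Values under about 3 counts per area rest on counting error.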
